A study of Mus musculus with 7 samples.

Results

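The kinetochore and centromere genes Ndc80, Nuf2, Spc24, Spc25, Ska1, Cenpa, Cenpe, Cenpf, Cenph and Mlf1ip were followed in C2C12 muscle cells that had received exosomes. They were chosen by name, as every non-control probe whose gene name on the array is 1 of these 10, which gave 12 probes among 39429, and 10 of 31829 gene names. C2C12 is an established line of mouse myoblasts, which stop dividing and fuse into multinucleated myotubes when serum is lowered. Donor C2C12 myotubes had been given palmitate at 0.5 mmol/l, or bovine serum albumin (BSA) as control, and recipient C2C12 cultures then received the vesicles that the donors released (EXO-Post Palm or EXO-Post BSA). RNA of 4 EXO-Post BSA and 3 EXO-Post Palm cultures, labelled as biological replicates, was hybridised to 1-colour Agilent mouse arrays. The labels name no genotype, transfection or sorting. Every sample is named C2C12 in its source label, but the cell line label runs from C2C12 to C2C18, a different one for each sample. Both groups were exposed to exosomes, so cells without exosomes are not part of the comparison. The labels call the recipient cells myoblasts and the study calls them myotubes. All 10 myotube markers examined, among them Myog and Myh3, were well above background on every array. So were 6 of the 7 myoblast markers examined, so detection of these markers does not decide between the names.

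At mitosis each chromosome attaches to the spindle through its kinetochore, a protein assembly built on the centromere. Cenpa encodes the histone H3 variant that marks centromeric chromatin, Cenph and Mlf1ip (now named Cenpu) encode parts of the inner network that binds to it, and Ndc80, Nuf2, Spc24 and Spc25 encode the 4 subunits of the Ndc80 complex, which grips the microtubule. Ska1 belongs to a complex that helps this grip, Cenpe is a motor protein that moves chromosomes along microtubules, and Cenpf is a large protein of the outer layer. These genes are known as genes of dividing cells, while fused myotubes have left the cell cycle.

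With EXO-Post Palm, 6 of the 9 genes that could be tested were higher past the threshold, by 4.4-fold to 7.43-fold, and the other 3 were higher by 2.32-fold to 3.56-fold without passing it. The 6 genes were Nuf2, Cenpa, Ska1, Ndc80, Cenpe and Cenph (limma, Benjamini-Hochberg adjusted p under 0.05 over all 21589 tested probes). Of all tested probes 0.463% were called higher by the same test. The median change of the 9 genes was 2.39 on the log2 scale, against -0.02 over all tested probes. The folds depended on the background correction. With normexp and quantile normalisation the 6 genes were higher by 2.80-fold to 5.01-fold and the median was 1.73 on the log2 scale, and on the authors' processed values the 6 were higher by 3.51-fold to 5.74-fold. Of the 9 genes 8 were well above background on all 7 arrays, and in 7 of these the lowest EXO-Post Palm array exceeded the highest EXO-Post BSA array. The same separation was seen in 5.4% of the tested probes. The remaining gene, Mlf1ip, entered the test through its EXO-Post Palm arrays alone. Cenpf could not be tested. In RNA from whole cultures, more cells carrying a transcript and more transcript per cell cannot be told apart.

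**Figure D1:**
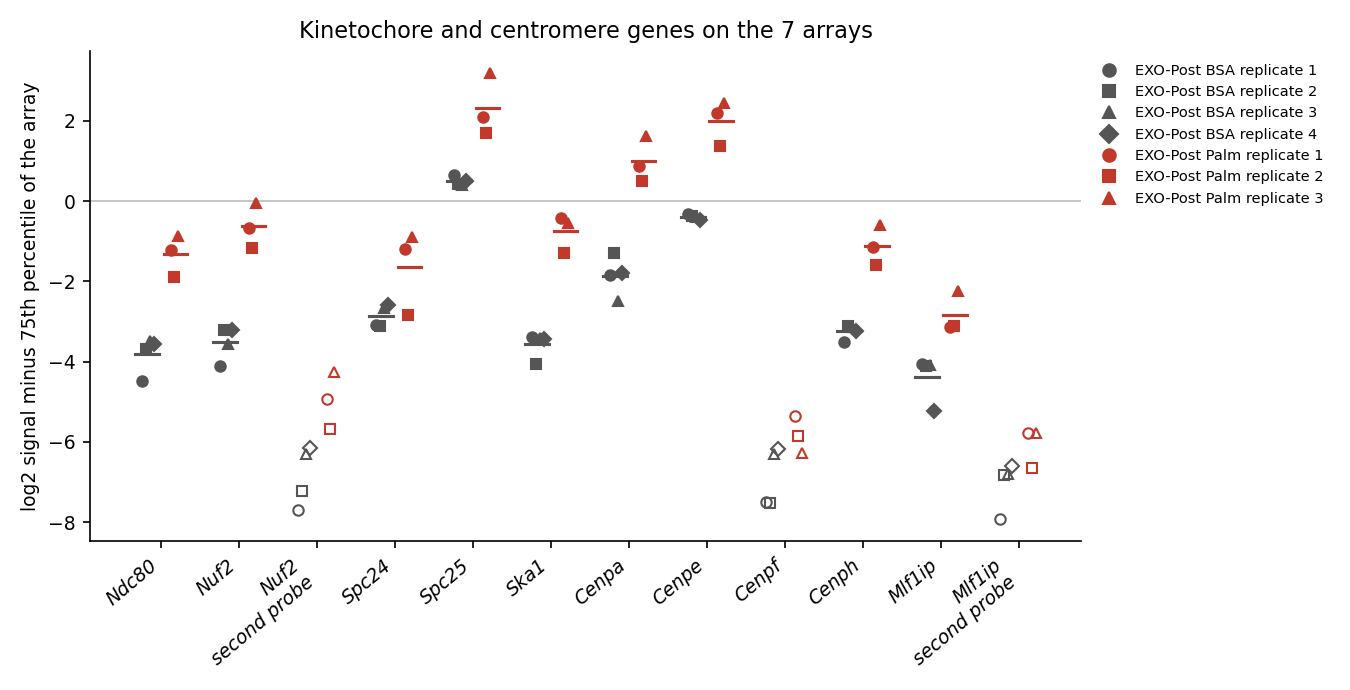
Values of the 12 probes on each array, as log2 signal minus the 75th percentile of that array (vertical axis), by gene (horizontal axis). Grey marks are the 4 EXO-Post BSA arrays, red marks the 3 EXO-Post Palm arrays, bars are group means, and open marks are the 3 probes too dim to be tested. In 8 of the 9 tested genes all red marks lie above all grey marks, and in Spc24 1 red mark lies among the grey ones.

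The stretches of DNA at the starts of these genes are shown for Nuf2, which had the largest rise in the limma fit reported above. They are also shown for Cenpa and Spc25, whose windows hold both the CHR and the CCAAT letters, and for Cenpe, which holds the CCAAT letters without CHR. Cenpf also holds both, Cenph and Mlf1ip also hold CCAAT without CHR, and they are not shown. CHR (TTTGAA) is an element known from promoters of genes expressed late in the cell cycle, and CCAAT is the binding site of the factor NF-Y, common beside it. Each stretch runs 5′ to 3′ from 120 bases before the annotated start to 30 bases after it, from RefSeq on GRCm38.p6, and capitals mark CHR or CCAAT letters on either strand. Nuf2 lies at chr1:169531435-169531584, minus strand. Cenpa lies at chr5:30666766-30666915, plus strand. Spc25 lies at chr2:69206184-69206333, minus strand. Cenpe lies at chr3:135212443-135212592, plus strand.
Nuf2: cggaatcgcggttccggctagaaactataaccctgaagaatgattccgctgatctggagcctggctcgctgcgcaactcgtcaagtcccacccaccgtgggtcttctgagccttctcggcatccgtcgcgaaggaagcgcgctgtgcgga
Cenpa: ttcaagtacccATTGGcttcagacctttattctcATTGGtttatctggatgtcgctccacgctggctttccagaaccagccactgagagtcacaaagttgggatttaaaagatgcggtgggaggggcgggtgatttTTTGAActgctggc
Spc25: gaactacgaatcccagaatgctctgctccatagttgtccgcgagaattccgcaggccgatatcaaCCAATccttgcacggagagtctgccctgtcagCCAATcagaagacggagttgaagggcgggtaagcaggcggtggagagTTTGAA
Cenpe: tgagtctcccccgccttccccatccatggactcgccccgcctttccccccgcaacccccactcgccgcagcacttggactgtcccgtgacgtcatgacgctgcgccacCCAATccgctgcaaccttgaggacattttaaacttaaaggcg

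RefSeq windows of 250 bases before to 50 bases after the start were at hand for 8 of the 10 genes (Mlf1ip under the name Cenpu). The CHR letters were found in 4 of them, Ndc80, Spc25, Cenpa and Cenpf, against 17.9% of all 32851 windows in the table. All 4 matches lay after the start, beginning at base 30 in Ndc80, 25 in Spc25, 17 in Cenpa and 3 in Cenpf. CCAAT was found in 6 of the 8 windows, against 37.4% of all windows. The GGCGG letters (CDE-like) were in all 8 windows and in 48.8% of the table. Of the E2F core letters, TTCCCGC was in Cenph alone, where it overlaps a GGCGG match (4.6% of all windows), and TTTGGCGC was in none of the 8 (0.514%). A match is a run of letters on either strand and not a bound site. The windows of Nuf2, Cenpe, Cenph and Mlf1ip did not hold the CHR letters. Of the 6 genes past the threshold, Ndc80 and Cenpa held them, Nuf2, Cenpe and Cenph did not, and no window was read for Ska1.

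**Figure D2:**
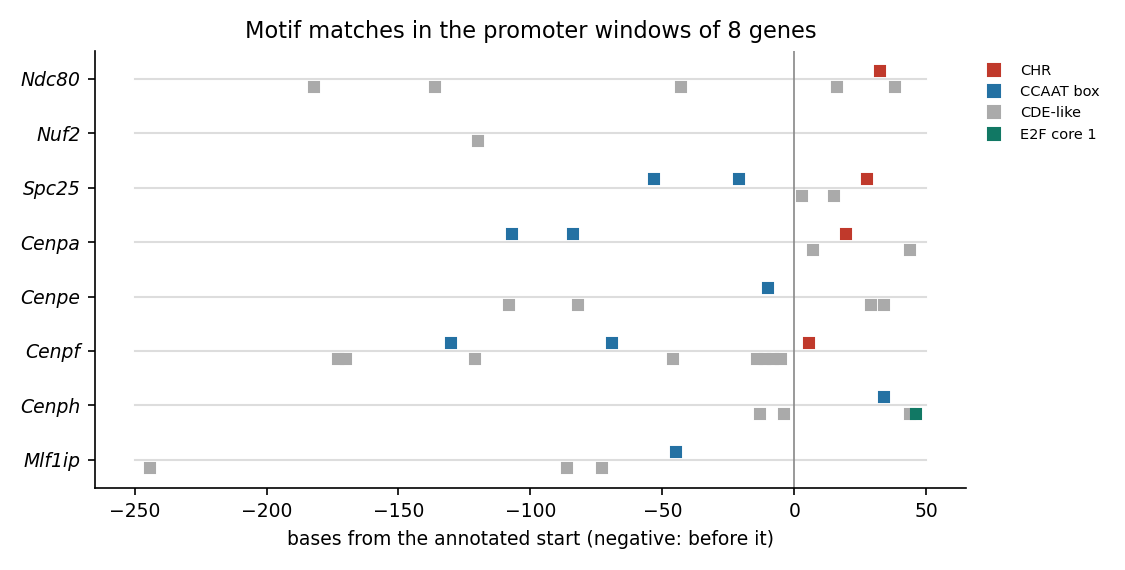
Positions of 4 motifs (coloured squares) in the RefSeq promoter windows of 8 genes, as bases from the annotated start, with negative values before it. The CHR squares of Ndc80, Spc25, Cenpa and Cenpf all lie just after the start, and Nuf2 holds a single CDE-like match.

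The Ndc80 complex was measured for all 4 subunits. Ndc80, the subunit with the microtubule-binding head, read -4.47, -3.68, -3.49 and -3.55 on the EXO-Post BSA arrays and -1.22, -1.90 and -0.87 on the EXO-Post Palm arrays. These are log2 signals relative to the 75th percentile of each array, so that 0 stands for that percentile. The groups did not overlap, and Ndc80 rose by 2.47 (standard error (SE) 0.331, 95% interval 1.72 to 3.22, limma adjusted p = 0.0193). Its probe lies at chr17:71860793-71861755 on mm9, minus strand, a span of 963 bases that exceeds the probe itself.

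Nuf2, which pairs with Ndc80 along the rod of the complex, read -4.12, -3.20, -3.55 and -3.22 with EXO-Post BSA and -0.68, -1.16 and -0.05 with EXO-Post Palm. The lowest EXO-Post Palm array was 2.05 above the highest EXO-Post BSA array. Its rise of 2.89 (SE 0.332, limma adjusted p = 0.0112) was the largest of the 9 on these values and ranked 28 among all tested probes. Cenpa, at 2.86, and Ska1, at 2.81, were close to it. Cenpa rose more with normexp and quantile normalisation (2.32 against 2.01) and on the authors' processed values (2.52 against 2.42). Ska1 rose more in the model that blocks on slide (3.11 against 3.06). A further Nuf2 probe, further along the transcript, cleared background on 0 of 4 EXO-Post BSA and 1 of 3 EXO-Post Palm arrays. With each EXO-Post BSA array set to the lowest signal well above background on it, the probe's EXO-Post Palm mean was 1.13-fold higher. Of the EXO-Post Palm arrays in that mean 2 were themselves not well above background, so this value is not a smallest possible rise. The probe was not tested.

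Spc25 joins Spc24 at the other end of the complex, which anchors it to the inner kinetochore. Spc25 read 0.66, 0.43, 0.39 and 0.49 with EXO-Post BSA and 2.09, 1.69 and 3.19 with EXO-Post Palm. No array of one group reached the other, and the change was 1.83 (SE 0.338). It missed the threshold (limma adjusted p = 0.0677), with an SD of 0.77 among the EXO-Post Palm arrays and 0.12 among the EXO-Post BSA arrays. By limma on the authors' processed values, where 0.468% of all probes were called higher, it passed (1.88, adjusted p = 0.0296), and in the model that blocks on slide it did not (2.04, adjusted p = 0.0639).

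Spc24 read -3.08, -3.11, -2.66 and -2.60 with EXO-Post BSA and -1.20, -2.84 and -0.90 with EXO-Post Palm. Here the groups overlapped, because EXO-Post Palm replicate 2 lay among the EXO-Post BSA arrays, 0.02 above their mean. The change of 1.22 (SE 0.439) did not pass (limma adjusted p = 0.405, exact permutation test p = 0.0857). With slide as a block limma gave 1.81 (SE 0.25, adjusted p = 0.0391). EXO-Post Palm replicate 2 and EXO-Post BSA replicate 3 each stood alone on a slide, so that model compares the groups without these 2 arrays. Leaving out EXO-Post Palm replicate 2 gave 1.81 (limma adjusted p = 0.025), and both values rest on the removal of that array. With slide as a block 0.477% of all tested probes were called higher, and 7 of the 9 genes, Spc24 in addition to the 6 named above.

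The 4 subunits were then compared in pairs, by the difference of their changes on the same arrays, a comparison added after these values were seen. The change of Nuf2 exceeded that of Spc24 by 1.68 (95% interval 0.70 to 2.65) and that of Spc25 by 1.06 (0.21 to 1.92). The change of Ndc80 exceeded that of Spc24 by 1.25 (0.40 to 2.11). In these 3 pairs the exact permutation test over the 35 splits of the arrays gave its smallest possible p of 0.0286. After adjustment over the 6 pairs this was 0.0572, and no pair passed. With 3 pairs at the smallest p the adjusted value cannot fall under 0.05, so the test does not decide whether they differ. Ndc80 and Nuf2 differed by -0.42 (-0.82 to -0.03), Ndc80 and Spc25 by 0.64 (-0.34 to 1.62), and Spc24 and Spc25 by -0.62 (-1.55 to 0.32). The differences depended on the background correction. With normexp and quantile normalisation the changes were 2.01 for Nuf2, 1.82 for Spc25, 1.49 for Ndc80 and 0.74 for Spc24. There Ndc80 lay below Spc25, and Nuf2 close to it. Without EXO-Post Palm replicate 2 the changes were 3.16 for Nuf2, 2.75 for Ndc80, 2.15 for Spc25 and 1.81 for Spc24.

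Ska1 was the member of the Ska complex chosen here. It read -3.39, -4.05, -3.40 and -3.44 with EXO-Post BSA and -0.43, -1.29 and -0.55 with EXO-Post Palm. The gap between the groups, 2.10, was the widest of the 9 genes. Ska1 rose by 2.81 (SE 0.284, 7.02-fold, limma adjusted p = 0.0108).

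At the centromere, Cenpa read -1.84, -1.30, -2.50 and -1.78 with EXO-Post BSA and 0.88, 0.51 and 1.62 with EXO-Post Palm. All 3 EXO-Post Palm arrays stood above the 75th percentile of their array and all 4 EXO-Post BSA arrays below it. Cenpa rose by 2.86 (SE 0.352, 7.27-fold, limma adjusted p = 0.0153). Its probe lies at chr5:30974916-30975386 on mm9, plus strand.

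The inner network was covered by Cenph and Mlf1ip. Cenph read -3.51, -3.11, -3.14 and -3.23 with EXO-Post BSA and -1.15, -1.59 and -0.60 with EXO-Post Palm, a rise of 2.14 (SE 0.266, limma adjusted p = 0.0153) between groups that did not overlap. Mlf1ip read -4.07, -4.12, -4.09 and -5.24 with EXO-Post BSA and -3.13, -3.11 and -2.24 with EXO-Post Palm. The probe cleared background on 2 of 4 EXO-Post BSA arrays and on all 3 EXO-Post Palm arrays, so it entered the test through the EXO-Post Palm arrays alone. Its change of 1.55 (SE 0.364) did not pass (limma adjusted p = 0.157). On the slide that held EXO-Post BSA replicates 1 and 2 and EXO-Post Palm replicate 1, all well above background, the difference was 0.96. EXO-Post BSA replicate 4, at -5.24, was not well above background. A further Mlf1ip probe was well above background on 0 of the 7 arrays.

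The motor gene Cenpe was the steadiest of the 9 among the EXO-Post BSA arrays, where it read -0.31, -0.37, -0.39 and -0.47 (SD 0.07). It read 2.19, 1.38 and 2.45 with EXO-Post Palm, and it rose by 2.39 (SE 0.271, 5.25-fold, limma adjusted p = 0.0108). Cenpf read -7.50, -7.52, -6.30 and -6.18 with EXO-Post BSA and -5.36, -5.86 and -6.27 with EXO-Post Palm. It cleared background on 0 of 4 EXO-Post BSA and 1 of 3 EXO-Post Palm arrays, and the groups overlapped. Its single probe therefore gives no fold.

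The arrays of one group did not share the change equally. Measured from the mean of the EXO-Post BSA arrays, the median of the 9 genes stood at 2.57 on EXO-Post Palm replicate 1, 1.77 on replicate 2 and 2.84 on replicate 3. EXO-Post Palm replicate 3 was the highest of its group in 8 of the 9 genes and replicate 2 the lowest in 8. Among the EXO-Post BSA arrays the same median lay between 0.01 and 0.12. After the group means were taken out, the deviations of 2 genes over the 7 arrays had a median Pearson r of 0.601 in the 36 pairs of genes (-0.00625 to 0.914), and of 0.712 in the 6 pairs within the Ndc80 complex. These pairs share arrays and their normalisation and are given as a description.

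**Figure D3:**
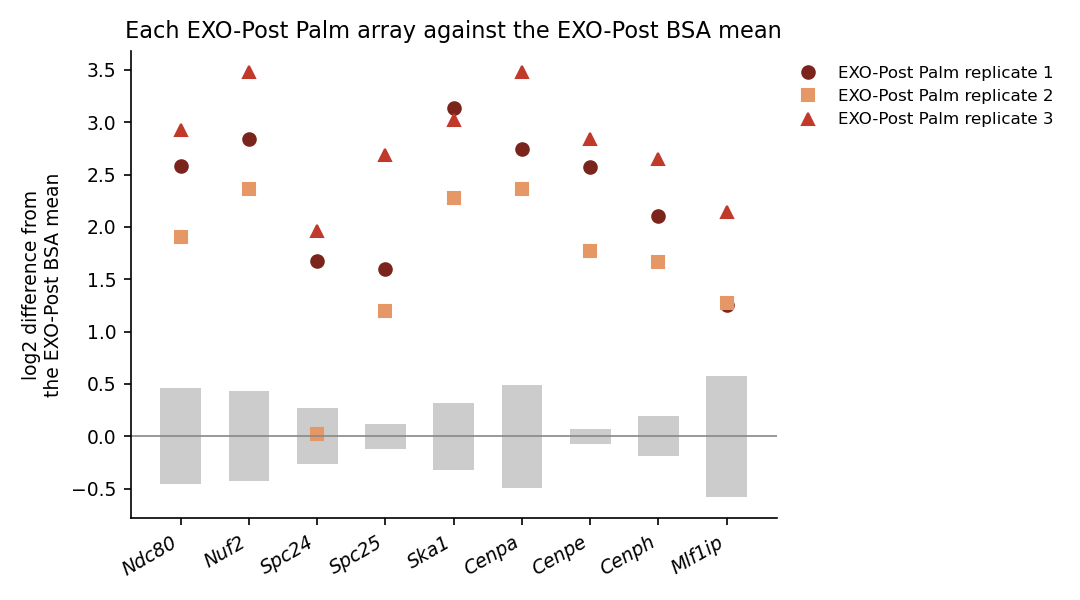
Difference of each EXO-Post Palm array from the EXO-Post BSA mean (vertical axis, log2) for the 9 tested genes (horizontal axis), with grey bars for 1 SD of the EXO-Post BSA arrays on either side of 0. Replicate 3 is highest in 8 genes and replicate 2 lowest in 8, and replicate 2 falls inside the grey bar in Spc24 alone.

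The arrays stood on 4 slides, 2 of which held both groups. On slide 1, EXO-Post Palm replicate 1 exceeded the mean of EXO-Post BSA replicates 1 and 2 by 0.96 (Mlf1ip) to 3.28 (Ska1). On slide 3, EXO-Post Palm replicate 3 exceeded EXO-Post BSA replicate 4 by 1.70 (Spc24) to 3.41 (Cenpa). The difference was positive on both slides in each of the 9 genes, with Mlf1ip on EXO-Post BSA replicate 4 not well above background. The 75th percentile of the signal ran from 549.4 to 1621 over the arrays, and 48.3% to 70.3% of probes were well above background. EXO-Post Palm replicate 1 had the highest of both values, and replicate 3 had the lowest percentile. All 6 genes lost the threshold of limma when EXO-Post Palm replicate 1 or replicate 3 was left out. In either case 0 of 9 passed, 8 of 9 had an unadjusted p under 0.05, and all 9 changes stayed positive. Over all probes, 0.0139% were called higher without replicate 1 and 0.018% without replicate 3. An unadjusted limma p under 0.05, in either direction, was seen in 2536 of 21595 and in 1516 of 22196 probes. Leaving out replicate 2 let 8 of the 9 pass, with 0.83% of all probes called higher.

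**Figure D4:**
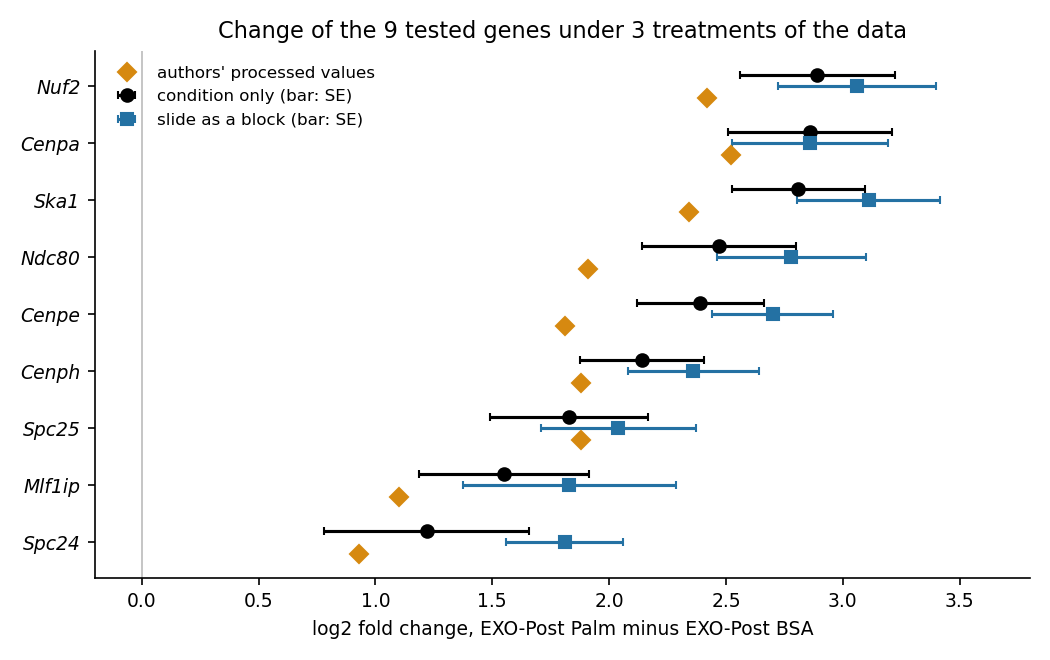
Log2 fold change of the 9 tested genes (horizontal axis, EXO-Post Palm minus EXO-Post BSA) with condition only (black, bar 1 SE), with slide as a block (blue, bar 1 SE) and on the authors' processed values (orange). All values lie above 0, and Spc24 moves most with the slide block, from 1.22 to 1.81.

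The rest of the kinetochore and centromere was read from lists of its genes. Of 33 such genes, listed by their place in the structure, 27 could be tested. Their median change was 0.83 and 20 of them were higher, against 47.3% of all tested probes. Casc5 and Cenpn passed the threshold, where 0.463% of all tested probes were called higher. An unadjusted limma p under 0.05 was seen in 17, all of them higher, and 4.85% of all tested probes had such a p and were higher. Of the 27, 19 were well above background on all 7 arrays, and among these 0 passed by limma, 11 had an unadjusted p under 0.05 and the median change was 0.70. In the model that blocks on slide 3 passed, Casc5 (adjusted p = 0.0339), Cenpi (adjusted p = 0.0327 by limma) and Kntc1 (adjusted p = 0.0391 by limma), and Cenpn did not (adjusted p = 0.0843 by limma). On the authors' processed values neither Casc5 nor Cenpn passed. Leaving out EXO-Post Palm replicate 2 let 6 pass, where 0.83% of all probes were called higher, against 0.477% with slide as a block. Leaving out EXO-Post Palm replicate 1 or 3 let 0 pass by limma, with 14 and 11 at an unadjusted p under 0.05. Of all probes 2536 of 21595 and 1516 of 22196 had such a p. Leaving out EXO-Post BSA replicate 2 or 3 also let 0 pass, with 16 and 15 at an unadjusted p under 0.05. In these fits 0.303% and 0.279% of all probes were called higher by limma, and 2077 of 19817 and 1909 of 20073 had an unadjusted p under 0.05. Casc5 passed without EXO-Post Palm replicate 2 (adjusted p = 0.0132 by limma) and in no other model that leaves out an array, and Cenpn passed without EXO-Post BSA replicate 1 (adjusted p = 0.0467 by limma) and in no other such model. The lists were chosen with results of these data known and are described by their counts.

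In the outer kinetochore, 4 of 7 tested genes were higher. Casc5, the scaffold that recruits checkpoint proteins (now Knl1), read -5.13, -4.97, -4.93 and -4.63 with EXO-Post BSA and -2.92, -3.70 and -2.74 with EXO-Post Palm. The fitted change was 1.80 (SE 0.273, limma adjusted p = 0.0353), and 0.62 with normexp and quantile normalisation. With 2 of its 4 EXO-Post BSA arrays well above background, Casc5 entered the test through the EXO-Post Palm arrays alone. The largest fitted fall was that of Mis12, which names the complex that links the Ndc80 complex to the centromere, by -1.30 (SE 0.966, limma adjusted p = 0.693). It read -2.34, -1.46, -1.99 and -1.50 with EXO-Post BSA and -1.22, -6.00 and -2.15 with EXO-Post Palm, so the fitted value rests on EXO-Post Palm replicate 2, where its spot was not well above background. Dsn1, a partner of Mis12 named here after its values were seen, read -5.90 on the same array against -1.03 and -1.75 on the other two.

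In the inner network, 10 of 13 tested genes were higher. Cenpn, whose protein reads the CENP-A nucleosome, read -3.87, -4.74, -3.96 and -4.80 with EXO-Post BSA and -2.56, -2.44 and -2.73 with EXO-Post Palm. It rose by 1.76 (SE 0.288, limma adjusted p = 0.0436), and 3 of its 4 EXO-Post BSA arrays were well above background. The change was 1.88 with slide as a block, where it did not pass, and 0.83 with normexp and quantile normalisation. Cenpi had the same change of 1.76 with a wider error (SE 0.611, limma adjusted p = 0.377), its EXO-Post Palm replicate 2 at -3.59 lying among the EXO-Post BSA arrays. With slide as a block, which gives that array no weight, it was 2.46. Stra13, at the lower end, changed by -0.21 (SE 0.324, limma adjusted p = 0.86).

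All 3 tested genes of CENP-A loading were higher, and none passed. Oip5, whose protein belongs to the Mis18 complex, changed by 2.25 (SE 0.42, limma adjusted p = 0.0702) and 0.90 with normexp and quantile normalisation. It cleared background on 1 of 4 EXO-Post BSA arrays and so entered the test through the EXO-Post Palm arrays alone. Mis18a had the smallest change of the 3, at 0.70. In the group of corona and microtubule-tracking genes 3 of 4 tested genes were higher. Kntc1, a part of the complex that brings dynein to kinetochores, changed by 1.40 (SE 0.388, limma adjusted p = 0.236), and by 1.97 when slides were blocked. Clasp1, which stabilises microtubules, changed by -0.37 (SE 0.199, adjusted p = 0.592).

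**Figure D5:**
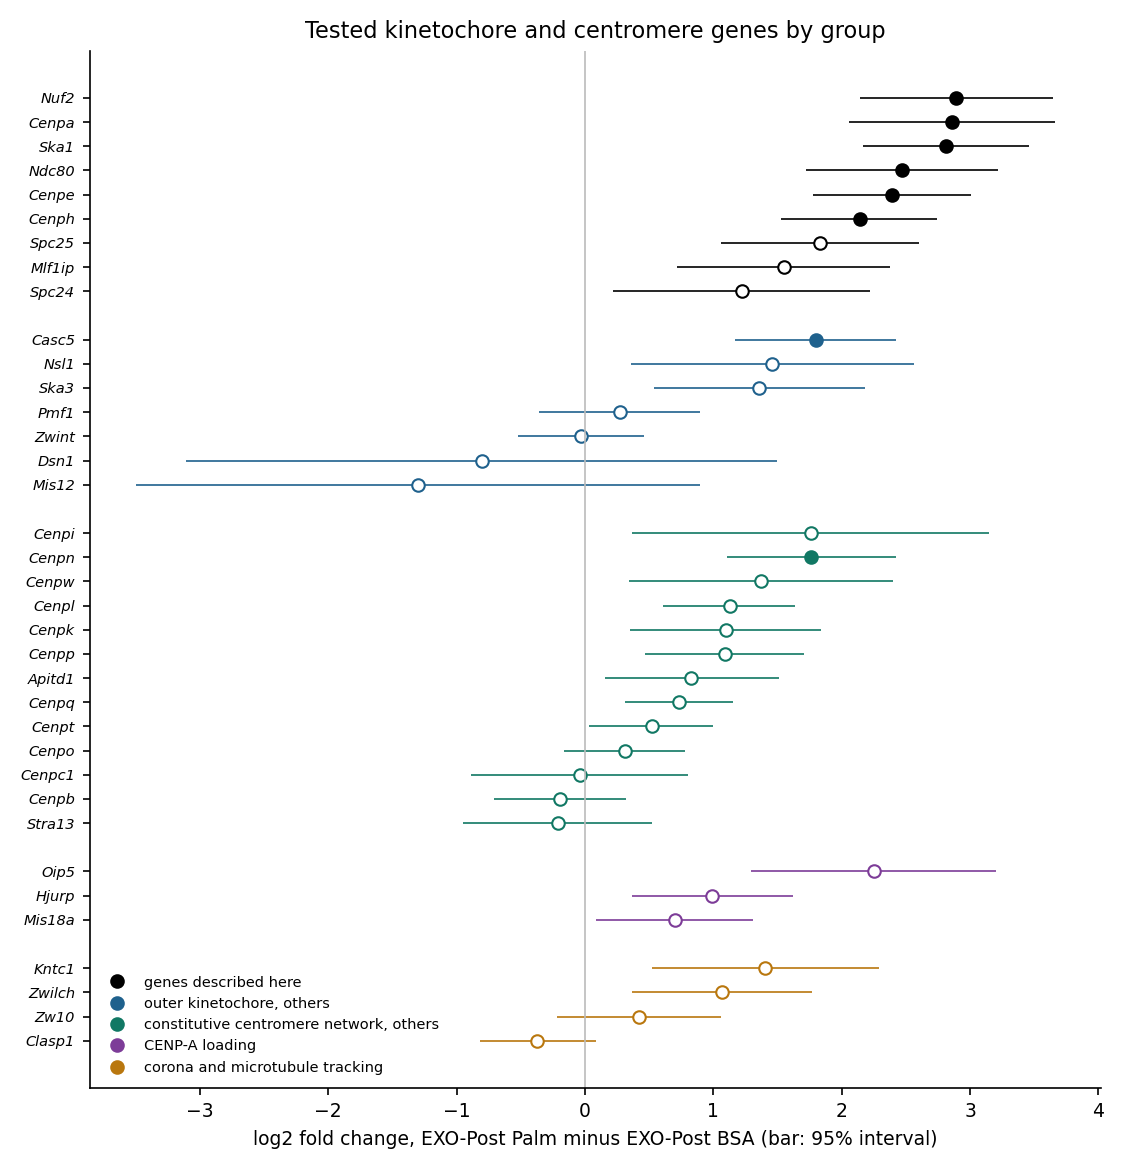
Log2 fold change with its 95% interval (horizontal axis) for the 9 tested genes described first (black) and 27 further kinetochore and centromere genes in 4 groups (colours). Filled marks passed the threshold, and open marks did not. Casc5 and Cenpn are the filled marks outside the black group, and the intervals of Mis12 and Dsn1 are the widest.

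Among tested genes other than the 10, the pattern over the 7 arrays most like the mean standardised pattern of the 9 was that of Bub1 (Pearson r = 0.997). Next were Ccnb1 (0.996), Tpx2 (0.995), Angptl4 (0.994) and Dmbt1 (0.993). These r include the difference between the groups and are descriptions. Bub1, a kinase of the spindle checkpoint, rose by 1.95 (SE 0.293, limma adjusted p = 0.0339), and Ccnb1, the cyclin of mitotic entry, by 2.76 (SE 0.282, adjusted p = 0.0108). Tpx2, a spindle assembly factor, rose by 1.85 (limma adjusted p = 0.0427). Angptl4, a secreted inhibitor of lipoprotein lipase, rose by 1.70 (SE 0.276, limma adjusted p = 0.0436). Dmbt1 rose by 2.05 (SE 0.298, limma adjusted p = 0.0307). With 2 of its 4 EXO-Post BSA arrays well above background, it entered the test through the EXO-Post Palm arrays alone.

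Markers of other cells were read beside these changes. All 6 markers of cycling cells were higher, with a median change of 2.24, and Mki67 (2.12), Top2a (2.36) and Ccnb1 passed. Pcna was measured on 5 of the 7 arrays. The summed level of the 5 other markers, as log2, ran from 1.23 to 1.66 with EXO-Post BSA and from 3.02 to 4.29 with EXO-Post Palm. Of the 10 myotube markers 1, Ckm, was higher, with a median change of -0.19 and none past the threshold. Their summed level ran from 8.92 to 9.27 with EXO-Post BSA and from 8.76 to 8.98 with EXO-Post Palm. Of 6 tested myoblast markers 3 were higher, with a median of 0.01, and the summed level ran from 4.77 to 5.15 and from 4.64 to 5.20. Myf5 was well above background on 0 of the 7 arrays. Of 12 adipocyte, macrophage and endothelial markers 5 were bright enough to be tested. By limma 0 of these passed, and 0 had an unadjusted p under 0.05. The endothelial genes Pecam1 and Kdr were well above background on all 7 arrays, and so was Csf1r, 1 of 4 macrophage markers. Of the other macrophage markers, Ptprc cleared background on 1 of 4 EXO-Post BSA and 1 of 3 EXO-Post Palm arrays. Cd68 did so on 1 of 4 and 0 of 3, and Emr1 on 4 of 4 and 2 of 3. The endothelial genes Cdh5 and Tek were well above background on 0 of the 7 arrays. The part that cells still dividing had in the rises was not tested.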

How the data were processed

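RNA of 7 C2C12 cultures (4 EXO-Post BSA, 3 EXO-Post Palm) was measured on 1-colour Agilent arrays. The authors deposited, for each array, the intensity of every spot after the scanner software's background subtraction, with no normalisation between arrays. They also deposited a table of log2 values, which was used as an alternative and joined by row order (rank correlation with the signal at least 0.9936). The submitters' processing notes name Agilent Feature Extraction 9.1. The file headers give version 10.7.3.1 for 6 arrays and 11.5.1.1 for EXO-Post BSA replicate 3, a difference confined to that array.

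Here log2 of the processed signal was centred on each array's 75th percentile over 43020 non-control spots. Spots marked uneven or as outliers were left out, and no non-control spot was saturated. Probes that cleared background on 75% or more of a group's arrays were tested (21589 of 39429) with limma 3.58.1 in R 4.3.3, 2-sided, with Benjamini-Hochberg adjustment over all of them and a threshold of 0.05. Single genes also had an exact 2-sided permutation test over 35 splits, whose smallest p is 0.0286. A gene was described by its brightest probe, and every probe of the 10 genes is given. Of other lists, the genes past the threshold and the largest rise and fall are named, with the 5 genes most like the 10. The genes and lists were chosen with earlier results of these data known. Replicate numbers come from the labels. Same-numbered arrays did not deviate together (Pearson r 0.122, -0.15 and -0.148), so no pairing was used. Same-slide pairs gave r of 0.122, 0.307 and 0.177, and slide as a block was an alternative. On simulated data the model found 67 of 100 probes changed by 2 and 5 of 100 changed by 1, among 21137 probes. The simulated noise was independent between probes and had the same SD in both groups. In the data the genes deviated together and SDs differed between groups, as in Spc25. The simulated rates are therefore not detection rates for the 10 genes. Promoter windows came from the RefSeq table, and probe positions from the array annotation (mm9). Alternatives covered background correction, normalisation, filter, blocks, test and each array left out. The planned normexp correction of mean signals used median signals, since EXO-Post BSA replicate 3 holds no mean signal. The number of arrays limits precision. Figures were drawn with matplotlib 3.10.9 in Python 3.11.15.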

Additional observations from a re-analysis of the deposited data

Results flagged for a closer look

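Among 36 sets of values of 4 arrays examined for a single array far from the rest, 2 held one, about what chance gives at 1 in 20. Ska1 read -4.05 on EXO-Post BSA replicate 2, while the other EXO-Post BSA arrays lay between -3.44 and -3.39. Mlf1ip read -5.24 on EXO-Post BSA replicate 4, while the others lay between -4.12 and -4.07, and the probe was well above background on 2 of these 4 arrays.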

How the results depend on the processing

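The direction of each of the 9 tested genes was kept under every alternative run (Mlf1ip was not in the fit filtered on all 7 arrays), and each of the 6 genes past the threshold passed in 12 of 17. The number of genes passing was 6 as reported, and 6 or 7 under the other normalisations, the authors' processed values, a filter of all 7 arrays, a trended and robust fit and slide as a block. It was 0 with no filter on dim probes, with a replicate block and with the methods' t-test after adjustment, where limma or that test called 0 probes overall and 12 of 12, 9 of 9 and 8 of 9 probes of these genes had an unadjusted p under 0.05. With each array left out in turn it ran from 0 to 8. The median change was 1.73 with normexp and quantile normalisation, against 2.39. For the 27 other kinetochore genes, the count of 2 became 0 with normexp and quantile normalisation, quantile normalisation, the authors' processed values, no filter, the replicate block, the trended and robust fit and the methods' t-test, and 0 to 6 with each array left out, while 11 to 17 of the 27 had an unadjusted p under 0.05 under each of these. Over all probes 1516 to 2553 had such a p in these fits, which held 19817 to 39429 probes. The count passing was 1 (Cenpl) with the filter of all 7 arrays, a fit that held 19 of the 27 and neither Casc5 nor Cenpn. The replicate block left 3 pairs and dropped EXO-Post BSA replicate 4, and the median change under it was 2.36. Dim probes limit what can be said of Cenpf and Mlf1ip. The causes of these differences were not tested.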
